A study of Drosophila melanogaster with 16 samples.

Results

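Transposable elements are DNA segments that copy or move themselves within a genome, and the reference genome of *Drosophila melanogaster* carries a large number of annotated insertions of them. The count table deposited for a study of the larval midgut lists 5734 such insertions as rows of their own beside 17873 genes, 24254 rows in all. The insertions described here are the 839 with at least 30 counts summed over the 16 libraries. Each was put in a family by the name that precedes the brace in its symbol, so that copia{}293 is an insertion of the family copia. The members were selected on their counts summed over all groups, and their levels are therefore given as a description. The 839 members belonged to 92 of the 128 families in the table and held 350101 of 364808 transposon counts (96.0%). A further 1919 insertions had between 1 and 29 counts and 2976 had none. Circe{}753, baggins{}485 and GATE{}1643 stood just inside the limit with 30 counts each, and F{}848, jockey{}117 and roo{}1379 stood just outside it with 29 each.

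The study silenced *Hnf4*, which encodes a nuclear receptor with wide roles in lipid and sugar metabolism, in the absorptive cells of the midgut (enterocytes), and measured polyadenylated RNA in dissected midguts. Hnf4i larvae (mex-GAL4 / UAS-Hnf4 RNAi) carried the RNAi transgene TRiP.HMC05862 at the attP40 site and the enterocyte driver mex1-GAL4. Control larvae (mex-GAL4 / attP40) carried the same driver and a P{CaryP} element at attP40. All larvae ate a yeast-only diet and were taken on day 4 (early L3 stage; 10 midguts per library) or day 3 after egg laying (late L2 stage; 30 midguts per library), with 4 libraries for each genotype and day. Mothers came from 1 mex1-GAL4 stock marked w1118, whereas fathers came from different stocks: y[1] sc[*] v[1] sev[21] for Hnf4i and y[1] v[1] for control. Chromosomes of different origin can carry different insertions, so in every comparison of Hnf4i with control below the silencing and the paternal stock background cannot be told apart. The number of midguts per library also differed between the days.

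Transposons fall into broad classes by how they move. LTR retrotransposons such as copia, roo, Tirant and 412 resemble retroviruses and copy themselves through RNA between long terminal repeats. Non-LTR retrotransposons such as Doc and jockey copy themselves through RNA without such repeats, and HeT-A and TART of this group form the telomeres of fly chromosomes. DNA transposons such as H (hobo), pogo and Bari1 are moved by a transposase as DNA, and INE-1, the most numerous family of the fly genome, is a short Helitron-like element without coding capacity. Small RNAs that bind Argonaute proteins hold most families down in the gonads and in body tissues. A count on an insertion can come from the element's own promoter or from a host gene that reads through it, and copies of 1 family are so alike that reads can be split among them or shared; how reads with several matches were counted is not given in the sources used here. Counts on single insertions are therefore uncertain, and family sums over all rows of a family are given beside them.

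Library totals lay between 44546248 and 83418453 counts. *Hnf4* was at 45.8, 48.9, 50.9 and 48.7 CPM (counts per 1000000 counts of a library, with library totals scaled by TMM factors unless stated) in Hnf4i midguts on day 3, against 93.5, 93.7, 88.4 and 94.8 in control midguts, and at 67.0, 58.4, 63.4 and 67.9 CPM on day 4, against 125, 123, 133 and 126. The summed level of 8 matched midgut markers was 9095 to 32721 CPM over the libraries, and 3 of the 8 fell in Hnf4i on day 4. Germline markers summed to 1.05 to 2.31 CPM in every library, with the germ cell gap junction gene *zpg* at 0 in all, and salivary gland markers to at most 1.03 CPM. Fat body transcripts moved with the groups: the sum of 7 markers was 12.7 to 2804 CPM in Hnf4i and 23.1 to 140 CPM in control midguts on day 4, and 18.1 to 41.8 CPM in Hnf4i and 11.8 to 15.8 CPM in control midguts on day 3, and 6 of 6 tested rose in Hnf4i on day 4. In Hnf4i on day 4, 3 of 5 hemocyte markers rose and 2 of 5 visceral muscle markers fell. Over all rows, 5.55% were higher and 6.65% lower in that comparison. Day 4 results were therefore also computed without the 4 libraries that held most fat body RNA, which leaves 1 Hnf4i library. Left out were Hnf4i replicates 1, 2 and 4 and control replicate 3. Values from this setting are given below for several calls that changed. The part of these cells in the other results was not tested. In bulk tissue fewer cells of a type and less RNA per cell cannot be told apart.

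The member counts were concentrated in few insertions. Doc{}CHKov1[Doc1420] and accord{}818 held 26.9% of them, the 10 highest members 40.2%, and the median member had 88 counts. A single insertion carried the larger part of the counts in 45 families. By class, 186 non-LTR members held 40.8% of the member counts, 268 LTR members 35.3%, 242 Helitron-like members 13.9%, 129 DNA transposon members 8.57% and 14 foldback members 1.41%. By the Ensembl BDGP6.54 annotation, 523 members (62.3%) lay in introns, 259 (30.9%) outside genes and 57 (6.79%) in exons, against 42.3%, 50.7% and 6.92% of all 5734 insertions. Members were also longer, with a median of 1071 bp against 360 bp over all insertions. Chromosome 4, the small and mostly heterochromatic dot chromosome, held 139 members.

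The insertion with most counts, Doc{}CHKov1[Doc1420], lies in the coding gene *CHKov1* on the gene's strand (chromosome 3R, 25324412 to 25328927) and is known to truncate it. It had 57992 counts. It stood at 43.9 ± 1.53 CPM in Hnf4i midguts on day 3, against 52.2 ± 3.52 in control midguts, and at 80.6 ± 4.93 CPM on day 4, against 87.0 ± 3.77 (SD, n = 4 each). The row of *CHKov1* itself averaged 43.0 CPM in Hnf4i and 52.8 CPM in control midguts on day 3, and 88.2 and 95.2 CPM on day 4. Whether the same reads count in both rows was not tested. The second, accord{}818, lies in an intron of *CG17574* against the gene's strand and had 36097 counts, with 32.8 ± 2.30 CPM in Hnf4i and 37.2 ± 1.09 in control midguts on day 3, and 39.4 ± 2.32 and 51.9 ± 4.43 CPM on day 4. Its difference between genotypes on day 4, a log2 fold change of -0.40, was smaller than the fold asked of a call. HeT-A{}6262 (11903 counts), copia{}1016 (7053), Tirant{}481 (5899) and copia{}920 (5348) followed.

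Summed over all members, transposon counts made up a larger share of the library totals in Hnf4i than in control midguts on both days, and a larger share on day 4 than on day 3. Scaled by library totals in place of TMM factors, members summed to 360 to 375 in Hnf4i midguts on day 3, against 342 to 357 CPM in control midguts, and to 438 to 456 on day 4, against 378 to 414. On the TMM scale the same sums averaged 325.5 ± 9.3 and 326.6 ± 6.06 CPM on day 3 and 473.1 ± 5.83 and 455.0 ± 20.2 CPM on day 4 (Hnf4i, then control; SD, n = 4). By library totals the genotypes did not overlap on either day, whereas on the TMM scale they overlapped on both days. Relative to library totals, TMM factors moved every log2 difference between day 4 and day 3 by 0.25 in Hnf4i and 0.28 in control midguts, so the counts of calls between days and the families called between days and named below are given on both scales.

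**Figure D1:**
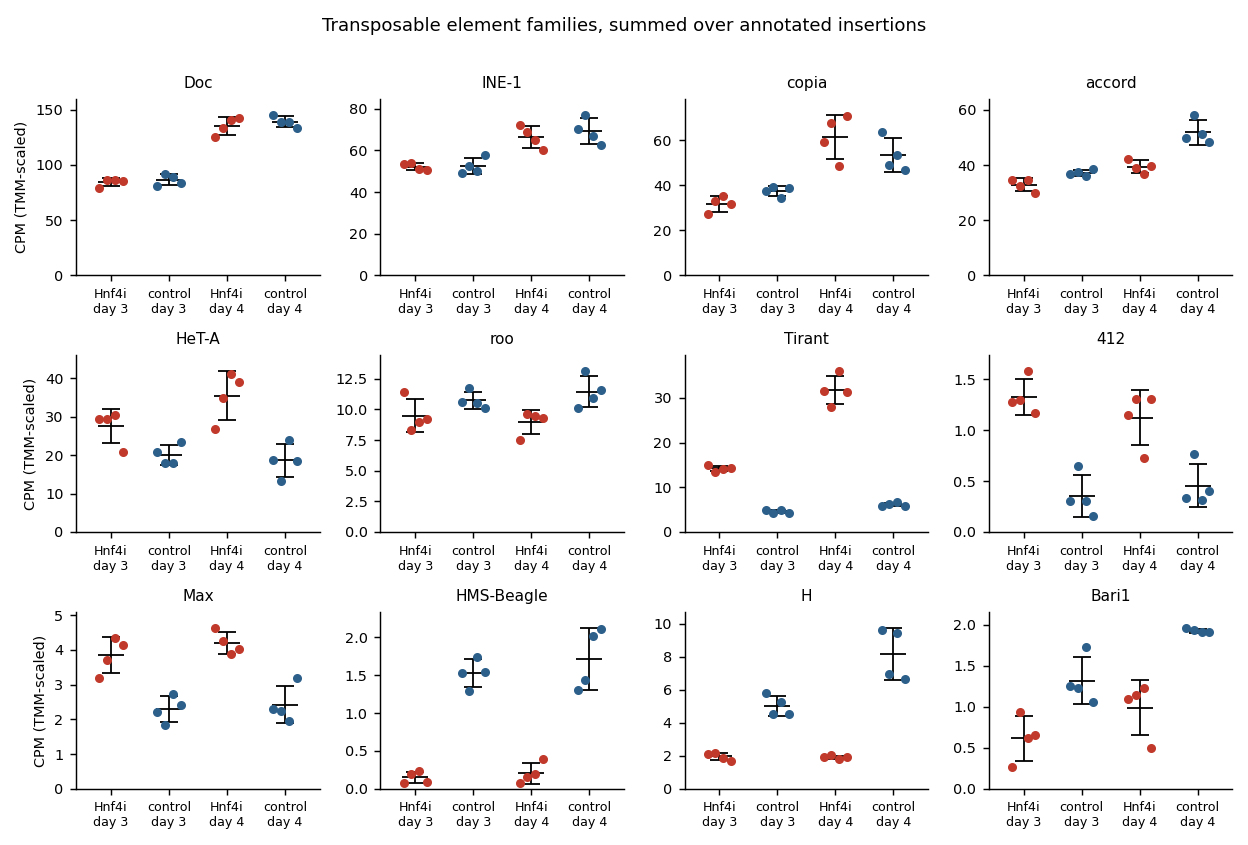
Level of 12 families (CPM, TMM-scaled, all insertions of a family summed) in each library, with dots for libraries and bars for the mean ± SD (n = 4), Hnf4i in red and control in blue on days 3 and 4. Tirant and 412 lay higher in Hnf4i midguts (412 with overlapping groups on day 4), HMS-Beagle and H lay higher in control midguts, and Doc lay higher on day 4 in both genotypes.

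Of the 839 members, 347 passed the filter on low counts and were tested, in 58 families, with edgeR's quasi-likelihood test across all 10172 rows that passed; the other 492 are given by values only. A call needed an adjusted p (Benjamini-Hochberg) under 0.05 and a log2 fold change of at least 0.5 in size. On day 3, 20 members were higher and 12 lower in Hnf4i than in control midguts, against a background of 1.61% of all rows higher and 2.52% lower. On day 4, 27 were higher and 17 lower (background 5.55% and 6.65%). Of these, 8 of the 20, 5 of the 12, 12 of the 27 and 5 of the 17 passed the filter through libraries of 1 genotype alone. That genotype was the one in which they were higher, so the filter itself favored a difference in them. Altogether 39 tested members passed through Hnf4i libraries alone and 25 through control libraries alone. Among those described below, Tirant{}833, Tirant{}24, Tirant{}69, Tirant{}147, flea{}876, flea{}810, pogo{}916, 412{}1459 and 412{}CG33267[iso-1] passed through Hnf4i libraries alone, and Burdock{}313, HMS-Beagle{}333, HMS-Beagle{}347, gypsy8{}2094 and ninja-Dsim-like{}2098 through control libraries alone. These counts describe the members and support no statement about transposons as a class. The median log2 fold change of the tested members was 0.08 on day 3 and 0.05 on day 4, against 0.00 and 0.02 over all rows, and 189 and 188 of 347 were positive.

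The members called between genotypes were the same on both days in many cases. Altogether 50 members of 26 families were called on either day, and 26 of them on both, 16 higher and 10 lower, none in opposite directions. LTR retrotransposons supplied 31 of the 50, non-LTR elements 13, DNA transposons 4 and INE-1 2. The 347 tested members held 96, 92, 55 and 98 of these classes. Called LTR members such as Tirant{}833, flea{}876 and Burdock{}313 passed the filter through 1 genotype alone, so the split supports no statement about classes. Of the 347 tested members, 15 of 7 families had every one of the 8 Hnf4i libraries above every control library. Another 6 of 5 families had every one below. Over all rows the shares were 0.983% and 1.99%, and the share of members below was not above the latter. Some of these members, such as Tirant{}833, passed the filter through libraries of 1 genotype alone, so the counts are a description. Both days share their fathers' stocks, so the repeat on the second day is not separate evidence on silencing.

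**Figure D2:**
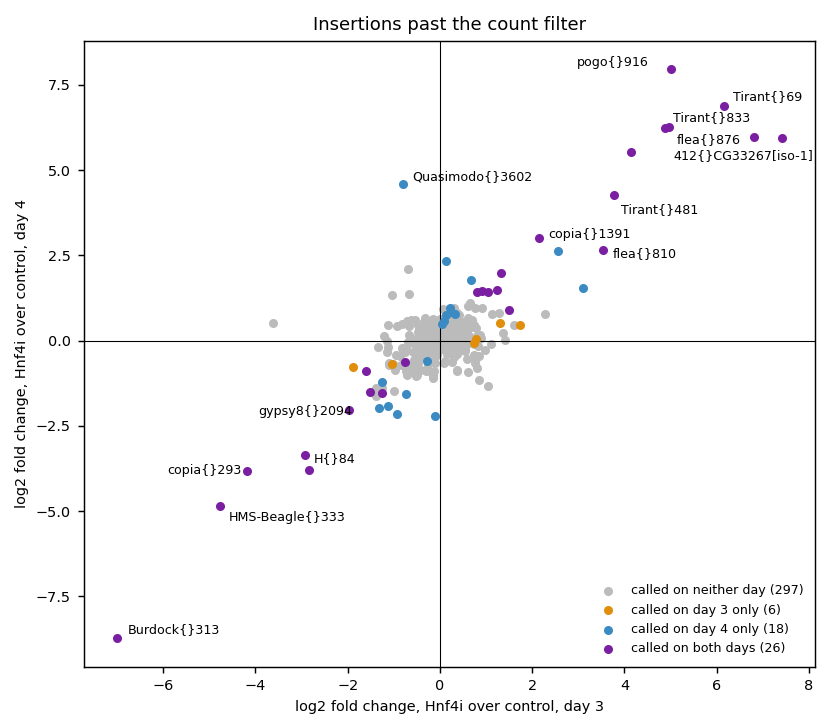
Log2 fold change of Hnf4i over control on day 3 (x axis) and day 4 (y axis) for the 347 tested insertions, colored by the days on which they were called. The 26 called on both days lie in the upper right and lower left, and 297 called on neither day lie mostly around 0.

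Summed by family, 75 of the 128 families passed the filter in a table of 9876 rows. On day 3, 7 families were higher and 3 lower in Hnf4i midguts (background 1.58% and 2.46%), and on day 4, 7 were higher and 6 lower (5.49% and 6.72%). Without the 4 libraries rich in fat body RNA, 6 families were called on day 4. Tirant, 412 and Max were higher on both days, and HMS-Beagle, H and Bari1 were lower on both. Blood, 3S18, 17.6 and flea were higher on day 3, and HeT-A, Quasimodo, pogo and Rt1c on day 4. Idefix, R1A1 and ninja-Dsim-like were lower on day 4. Several day 4 calls were lost without the libraries rich in fat body RNA, with 1 Hnf4i library left. The family values were then 0.63 for Max, 0.73 for Quasimodo, 0.55 for pogo, 0.69 for Rt1c and -1.60 for ninja-Dsim-like. Among insertions, the same held for 412{}CG33267[iso-1] (5.33), HMS-Beagle{}347 (-3.25), flea{}1998 (-1.10) and gypsy8{}2094 (-1.70). Many family calls rested on 1 insertion: without the insertion of each family that held most counts, 8 families were called on day 4, and Max, H, Bari1, Idefix, R1A1, ninja-Dsim-like, Quasimodo, Rt1c, 17.6 and 3S18 lost their calls.

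Tirant, a gypsy-like LTR retrotransposon, was higher in Hnf4i midguts on both days. Its 25 insertions together stood at 14.9, 13.3, 14.2 and 14.4 CPM in Hnf4i midguts on day 3, against 4.92, 4.29, 4.97 and 4.28 in control midguts, and at 31.6, 28.1, 35.9 and 31.4 CPM on day 4, against 5.85, 6.29, 6.58 and 5.79. No Hnf4i library came near a control library. On the log2 scale Tirant was 1.63 higher in Hnf4i on day 3 (SE 0.08, adjusted p 5.05e-10). The day 4 difference was 2.37 (SE 0.08, adjusted p 5.36e-12), or 2.61 without the libraries rich in fat body RNA. The difference between genotypes was larger on day 4 than on day 3, with an interaction of 0.74 (SE 0.12, adjusted p 0.000646). Summed over the Tirant insertions outside annotated genes alone, the interaction turned to -1.49.

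Among its members, Tirant{}481, a copy of 8205 bp in an intron of *CG42238* on 2L against the gene's strand, held 48.5% of the family's counts. It had 414, 441, 501 and 384 counts in Hnf4i midguts on day 3, against 38, 28, 44 and 19 in control midguts, and 1049, 749, 1015 and 995 counts on day 4, against 33, 101, 52 and 36. The groups were far apart on both days, with log2 fold changes of 3.77 (SE 0.22) and 4.26 (SE 0.21). *CG42238* itself differed by -0.09 and -0.15 and was not called. Tirant{}833, a copy of 8425 bp in an intron of *chn*, which encodes a zinc finger transcription factor, lies on the gene's strand. It had 100, 140, 133 and 111 counts in Hnf4i midguts on day 3, against 2, 3, 5 and 6 in control midguts, and 245, 232, 255 and 251 on day 4, against 2, 6, 5 and 1. Controls were near 0 on both days, and the Hnf4i libraries were higher on day 4 than on day 3. The log2 fold changes between genotypes were 4.89 (SE 0.26) and 6.23 (SE 0.26), given as a description since the insertion passed the filter through Hnf4i libraries alone, whereas *chn* differed by -0.07 and -0.38 without a call.

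Other Tirant copies followed the same pattern at lower counts. Tirant{}24, in an intron of the kinase gene *Raf*, had 44 counts over the Hnf4i libraries on day 3, against 2 over the controls, and 63 on day 4, against 1, which gives ratios of 22.3 (95% counting interval 5.81 to 190) and 68.7 (11.9 to 2760). Tirant{}69 was at 0 in all controls, and was at least 12.5-fold higher in Hnf4i on day 3 and at least 19.6-fold higher on day 4, taking 3 counts over the control group as the floor. Tirant{}147, in *CG5004*, was called on day 4 (2.62), as was its host gene. Below the filter, Tirant{}1432 had 16 counts in Hnf4i and 0 in control midguts on day 3, and 44 and 0 on day 4. Not every copy differed: Tirant{}5840, a 38 bp stretch in an intron of *CG15211* with 3902 counts, stood at 3.62 ± 0.22 CPM in Hnf4i and 3.77 ± 0.23 in control midguts on day 3, and at 5.54 ± 0.76 and 4.75 ± 0.40 on day 4 (SD, n = 4). Its log2 fold changes of -0.06 and 0.22 were not called, and neither were those of Tirant{}328 (0.06 and 0.63).

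**Figure D3:**
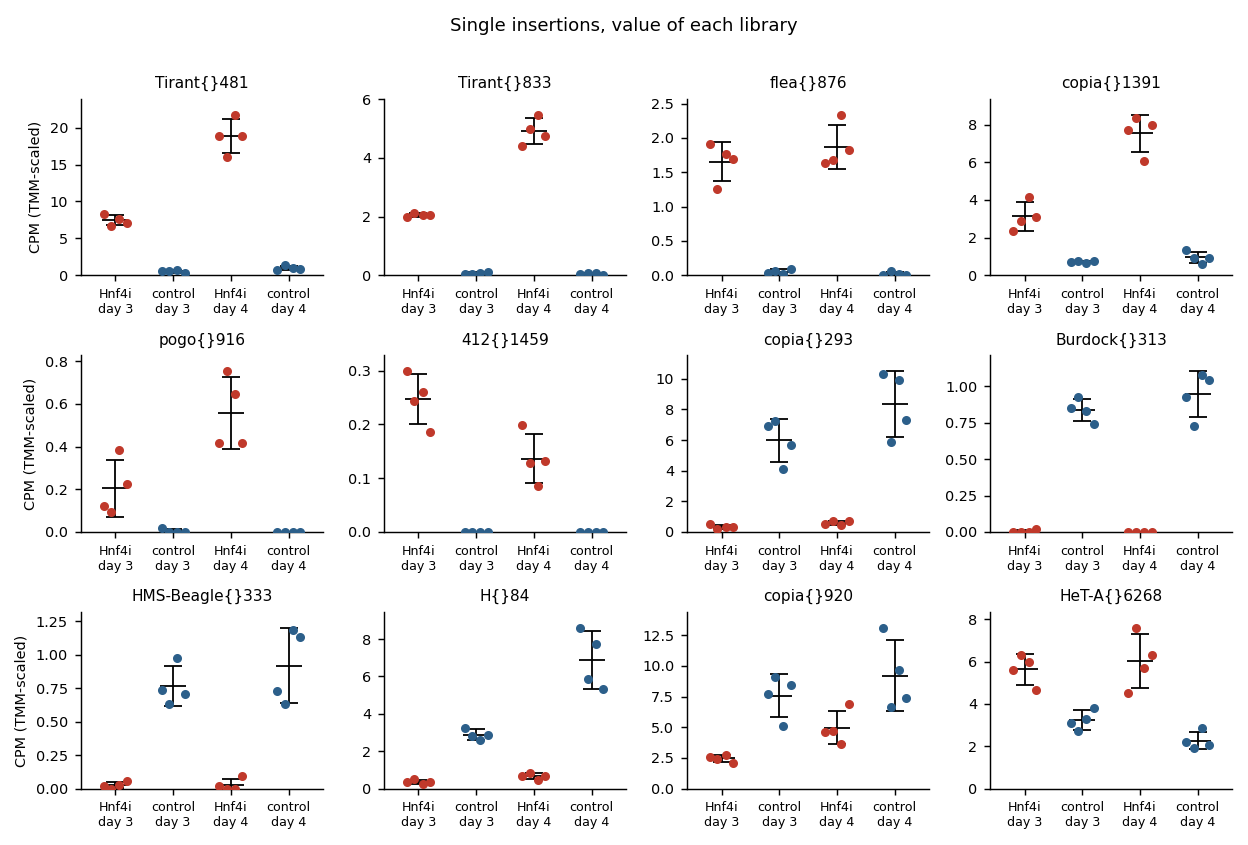
Level of 12 insertions (CPM, TMM-scaled) in each library, with dots for libraries and bars for the mean ± SD (n = 4), Hnf4i in red and control in blue on each day. The 2 Tirant copies, flea{}876, copia{}1391, pogo{}916 and 412{}1459 lay near 0 or low in control midguts, and copia{}293, Burdock{}313, HMS-Beagle{}333 and H{}84 lay near 0 or low in Hnf4i midguts.

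Several other insertions were read almost only in Hnf4i midguts. 412{}1459, an LTR element 2412 bp from *Fer1HCH* on 3R, had 15, 16, 17 and 10 counts in Hnf4i midguts on day 3 and 11, 6, 4 and 7 on day 4, and none in any control library, so that it was at least 19.6-fold and 10.2-fold higher. 412{}CG33267[iso-1] on 3L was likewise at 0 in all 8 controls and at least 31.4-fold and 10.2-fold higher in Hnf4i midguts. Another copy, 412{}3078, differed by -0.63 and 0.60 and was not called, and the family as a whole was higher by 1.92 (SE 0.38) and 1.28 (SE 0.37). Without the libraries rich in fat body RNA the day 4 value of the family was 0.54, not called with 1 Hnf4i library left.

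The LTR element flea{}876, 1458 bp from *lncRNA:CR44780* on 2R, had 96, 82, 115 and 91 counts in Hnf4i midguts on day 3, against 2, 3, 1 and 6 in control midguts, and 91, 78, 109 and 96 on day 4, against 0, 4, 1 and 0. Its log2 fold changes were 4.98 (SE 0.43) and 6.26 (SE 0.49). A second copy, flea{}810 in an exon of *CG7741* against the gene's strand, was also higher (3.54 and 2.66), but flea{}1998 was lower (-1.27 and -1.53). The family sum of 29 insertions accordingly was 0.68 higher on day 3 and differed by 0.01 on day 4. The DNA transposon fragment pogo{}916 (183 bp, 3L) had 6, 6, 25 and 12 counts in Hnf4i midguts on day 3, against 1, 0, 0 and 0 in control midguts, a ratio of 49.6 (8.49 to 2000), and was at least 40.0-fold higher on day 4, with 23, 35, 30 and 22 counts against none.

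Copia, the founding member of a large LTR group, had members that went both ways. The 25 tested insertions ranged from -4.18 to 2.14 on day 3 and from -3.81 to 3.00 on day 4, and the family sum differed by -0.24 and 0.21 without a call. Highest was copia{}1391, a copy of 5148 bp 98 bp from *CG10887* on 3R, at 2.35, 2.87, 4.16 and 3.12 CPM in Hnf4i midguts on day 3, against 0.701, 0.742, 0.642 and 0.741 in control midguts, and at 7.73, 8.36, 6.10 and 7.98 CPM on day 4, against 1.32, 0.922, 0.619 and 0.932. The groups did not overlap, and the log2 fold changes were 2.14 (SE 0.21) and 3.00 (SE 0.21). Lowest was copia{}293, a copy of 5147 bp 860 bp from *CG31949* on 2L (2294097 to 2299243). It had 25, 14, 19 and 18 counts in Hnf4i midguts on day 3, against 416, 399, 244 and 358 in control midguts, and 27, 32, 21 and 39 counts on day 4, against 469, 425, 560 and 329, with log2 fold changes of -4.18 (SE 0.28) and -3.81 (SE 0.26).

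Between these extremes, copia{}920, in an intron of the kinase gene *Eip63E* and on its strand, was lower by 1.61 and 0.89 on the log2 scale, and its day 4 groups overlapped. *Eip63E* did not differ (0.01 and -0.04). Copia{}1467, in an intron of *Gprk2*, a kinase of G protein-coupled receptors, was higher (1.04 and 1.42). Without the libraries rich in fat body RNA its day 4 value was 0.92 and not called, with 1 Hnf4i library left. Copia{}67 in *CG3726* was higher on both days (1.49 and 0.89), whereas copia{}988 was lower on day 3 alone (-1.04). The most abundant copia member, copia{}1016, stood at 6.50 ± 1.00 CPM in Hnf4i and 6.44 ± 0.27 in control midguts on day 3 and was not called on either day.

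Other insertions were read mainly in control midguts. Burdock{}313, an LTR element 1813 bp from *Nepl4* on 2L, had 0, 0, 0 and 1 counts in Hnf4i midguts on day 3, against 51, 51, 49 and 47 in control midguts, a ratio of 0.00511 (95% counting interval 0.000129 to 0.0288). On day 4 it had no count in Hnf4i midguts, against 42, 53, 61 and 47 in control midguts, and was at least 62.0-fold lower. Both tested members of the LTR family HMS-Beagle fell. HMS-Beagle{}333 had 1, 0, 2 and 3 counts in Hnf4i midguts on day 3, against 44, 35, 58 and 45 in control midguts, and 1, 0, 0 and 5 on day 4, against 33, 46, 67 and 51, and HMS-Beagle{}347 differed by -2.84 and -3.79. The family sum of 23 insertions was lower by 3.28 (SE 0.40) and 3.06 (SE 0.39) on the log2 scale.

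The DNA transposon hobo, listed as H, was lower through 1 insertion. H{}84, a copy of 2981 bp in an intron of the acetylcholine receptor gene *nAChRalpha3* on X, had 19, 34, 17 and 19 counts in Hnf4i midguts on day 3, against 196, 155, 153 and 182 in control midguts, and 39, 40, 21 and 36 on day 4, against 390, 427, 437 and 240. Its log2 fold changes were -2.92 (SE 0.23) and -3.35 (SE 0.22). The family sum differed by -1.36 and -2.10, and by -0.45 and -0.06 without H{}84. The family interaction of -0.74 (SE 0.20, adjusted p 0.0296) became 0.39 without it, whereas H{}84 alone had an interaction of -0.42 that was not called. Bari1, another DNA transposon, was lower by 1.08 and 0.97 as a family of 7 insertions. Its leading member, Bari1{}Jheh[Bari1855], sits beside the juvenile hormone epoxide hydrolase genes and was at 0.396, 0.301, 0.408 and 0.133 CPM in Hnf4i midguts on day 4, against 0.704, 0.702, 0.743 and 0.754 in control midguts (-1.23, adjusted p 0.0374). Without the libraries rich in fat body RNA the day 4 values were -0.63 for Bari1 and -0.79 for this member, neither called with 1 Hnf4i library left. Another tested member, Bari1{}Cyp12a4[Bari1-1386], lies in an exon of *Cyp12a4* and differed by -1.11 and -0.72 without a call. *Cyp12a4* itself was called lower on both days (-2.45 and -2.49). Whether reads on this insertion come from the transcript of *Cyp12a4* was not tested.

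Of 8 tested members of the telomeric family HeT-A, 3 were higher in Hnf4i midguts on day 3 and 4 on day 4. The 27 HeT-A insertions together stood at 26.8, 34.9, 41.3 and 39.0 CPM in Hnf4i midguts on day 4, against 18.8, 13.4, 23.9 and 18.4 in control midguts, and at 29.5, 29.5, 30.4 and 20.9 CPM on day 3, against 20.9, 18.0, 17.9 and 23.4. The day 4 groups did not overlap (0.93, SE 0.17, adjusted p 0.00049), and the day 3 difference (0.47, SE 0.17, adjusted p 0.108) was not called. Near the end of chromosome 4, HeT-A{}6268 was higher by 0.80 and 1.41, HeT-A{}6278 by 0.91 and 1.46 and HeT-A{}6270 by 1.32 and 1.99, all called on both days. HeT-A{}6262, which held 53.1% of the family's counts, was called on day 4 alone (0.79). The other 4 were called on neither day, and HeT-A{}6276 (-0.66) and HeT-A{}6532 (-0.28) were negative on day 3. The nearest gene to these copies, *Cadps*, differed by 0.27 on day 3 and 0.03 on day 4 without a call.

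Max{}6542, an LTR copy of 5730 bp in an exon of *lncRNA:CR46481*, was at 2.15, 2.36, 2.61 and 2.50 CPM in Hnf4i midguts on day 3, against 0.884, 0.869, 1.11 and 1.18 in control midguts, and at 2.94, 2.71, 2.68 and 2.73 CPM on day 4, against 0.814, 1.06, 0.726 and 1.33. It was called on both days (1.25 and 1.49). The family sum was higher by 0.75 and 0.80, and differed by 0.17 and 0.00 without this copy. On day 3 alone, 17.6{}1213 (1.30) and 3S18{}853 (1.74), both LTR insertions, were higher and carried the calls of their families (0.76 and 1.05). The blood family, also of LTR type, was higher on day 3 (1.18, SE 0.23) although none of its 4 tested members was called. Its libraries stood at 0.577, 0.595, 0.598 and 0.668 CPM in Hnf4i midguts on day 3, against 0.217, 0.290, 0.236 and 0.331 in control midguts.

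On day 4 alone, Quasimodo{}3602, an LTR fragment of 659 bp 2753 bp from *Stlk*, had 10, 15, 45 and 74 counts in Hnf4i midguts, against 1, 1, 3 and 1 in control midguts (4.60, SE 0.74). On day 3 it had 1, 7, 5 and 6 counts, against 6, 11, 11 and 5, and was not called. Replicates of Hnf4i differed widely on day 4, and no control library reached the lowest of them. Its interaction of 5.39 (adjusted p 0.00302) was 1 of 2 called among members, with Tc1{}1531 (2.38, adjusted p 0.0392), which differed by -1.04 on day 3 and 1.34 on day 4 without a call on either. None was called lower (background 2.58% higher and 2.3% lower; 25 members at an unadjusted p under 0.05). Quasimodo{}3602 reached the filter's limit of 0.179 CPM in 3 Hnf4i libraries on day 4 and 2 control libraries on day 3, and Tc1{}1531 passed it through Hnf4i libraries alone. Among families 1 was called higher, Tirant, and 1 lower, H (background 2.56% and 2.42%). The LTR family gypsy was named whatever its values, since fly transgene vectors commonly carry gypsy sequence. It stood at 0.0597, 0.0915, 0.0460 and 0.0742 CPM in Hnf4i midguts on day 3, against 0.250, 0.471, 0.355 and 0.110 in control midguts, and differed by -2.07 (adjusted p 0.0772) and -1.20 (adjusted p 0.215), not called on either day.

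Some insertions differed together with the gene around them. Of the 50 members called on either day, 26 lay in a tested gene, and for 8 of these the host gene was called the same way on that day. Over all rows, 1.61% were higher and 2.52% lower on day 3, and 5.55% and 6.65% on day 4. The 8 lay in 4 genes, most of them in *CG3635*, with *CG5004* and *CG3726* among the other genes. In *CG5004*, Tirant{}147 differed by 2.62 on day 4 and the gene by 0.53, and Tirant{}147 passed the filter through Hnf4i libraries alone. *CG3635* encodes a predicted lipase and averaged 16.8 CPM in Hnf4i and 40.3 in control midguts on day 3, and 27.5 and 83.5 CPM on day 4 (-1.27 and -1.60, both called lower). In and beside it, within 11.9 kb of 2L (22174048 to 22185970), lay 10 members of 8 families, among them Cr1a{}1992, INE-1{}6139, R1A1{}536, Idefix{}537, ninja-Dsim-like{}2098, gypsy8{}2094 and flea{}1998. The 9 tested members differed by -1.98 to -0.73 on day 3, with 3 called lower, and by -2.14 to -1.39 on day 4, with 7 called lower. Among those called, gypsy8{}2094 (both days) and ninja-Dsim-like{}2098 (day 4) passed the filter through control libraries alone. Their values are a description. R1A1{}536, for example, had 49, 46, 33 and 33 counts in Hnf4i midguts on day 4, against 100, 217, 134 and 86 in control midguts (-1.56). The family calls of Idefix, R1A1 and ninja-Dsim-like on day 4 were lost without these copies, at -0.53, -1.03 and -0.36. Whether reads on these copies come from the transcript of *CG3635* was not tested.

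**Figure D4:**
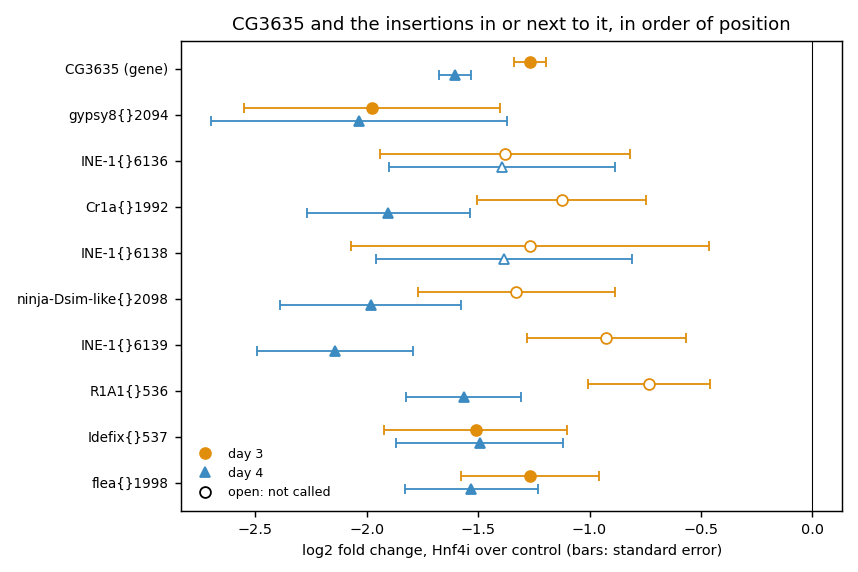
Log2 fold change of Hnf4i over control (± SE) on both days for *CG3635* and the 9 tested insertions in or next to it, in the order of their positions, with filled symbols for calls and open symbols otherwise. All 9 insertions and the gene lie below 0 on both days. Gypsy8{}2094 and ninja-Dsim-like{}2098 passed the filter through control libraries alone.

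INE-1, the family with most insertions, differed little between genotypes as a whole. The sum of its 2234 insertions differed by -0.00 on day 3 and -0.06 on day 4, and of 98 tested members 0 were higher on either day and 1 and 2 lower (edgeR). Roo, an abundant LTR family, had 13 tested members and no call on either day. Doc had 50 tested members, of which 2 were higher on day 3 and none was called on day 4, and its family sum differed by -0.03 and -0.04.

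**Figure D5:**
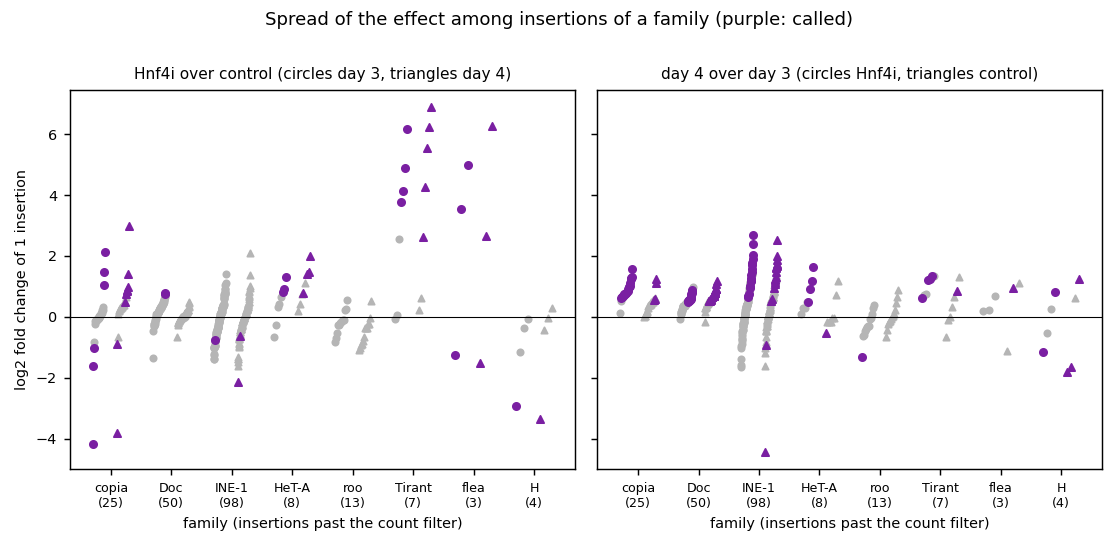
Log2 fold changes of the tested insertions of 8 families, Hnf4i over control on the left (circles day 3, triangles day 4) and day 4 over day 3 on the right (circles Hnf4i, triangles control), with called insertions in purple. Copia, Tirant and flea spread widely between genotypes, whereas most Doc and copia insertions lie above 0 between days on the TMM scale.

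Between days, most tested families and members stood higher on day 4 in both genotypes on the TMM scale. In Hnf4i midguts 89 members were higher and 8 lower on day 4 (background 18.5% and 23.6%), and in control midguts 93 were higher and 12 lower (16.6% and 22.1%). Of these, 19 of the 89, 5 of the 8, 26 of the 93 and 4 of the 12 passed the filter through libraries of 1 day alone. With library totals in place of TMM factors the counts were 47 higher and 18 lower in each genotype. Here and for families below, shares over all rows were computed only on the TMM scale with all libraries. The median log2 fold change of the tested members on the TMM scale was 0.45 in Hnf4i and 0.48 in control midguts, against -0.01 and 0.00 over all rows. In Hnf4i midguts without the day 4 libraries rich in fat body RNA, 28 were higher and 10 lower. Of the members higher on day 4, 52 in Hnf4i and 51 in control midguts lay in a tested gene, and for 24 and 22 the gene was higher too.

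Among families 17 were higher on day 4 in Hnf4i midguts and 21 in control midguts (background 18.7% and 16.9%), and none was lower by edgeR (23.8% and 22.1%). With library totals, 11 were higher and 2 lower in Hnf4i midguts, and 14 and 2 in control midguts; at an unadjusted p under 0.05, 25 and 28 families differed on the TMM scale. Doc stood at 125, 133, 140 and 143 CPM in Hnf4i midguts on day 4, against 79.0, 86.3, 86.7 and 85.3 on day 3, and at 146, 139, 139 and 134 CPM in control midguts on day 4, against 81.2, 92.1, 89.4 and 83.7 on day 3. The days did not overlap in either genotype, with log2 fold changes of 0.69 and 0.70 (SE 0.06 each) on the TMM scale. With library totals they were 0.43 and 0.41, below the fold asked of a call. On the TMM scale the Hnf4i value was 0.45 without Doc{}CHKov1[Doc1420]. Of 50 Doc members, 49 were positive in each genotype on the TMM scale, 14 of them called in Hnf4i and 31 in control midguts. Over all rows, 18.5% and 16.6% were called higher on that scale. Copies of 1 family can share reads, so these counts are a description.

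Copia was also called higher on day 4 on the TMM scale, at 61.6 ± 9.87 CPM on day 4, against 31.7 ± 3.42 on day 3, in Hnf4i midguts, and at 53.5 ± 7.54 against 37.6 ± 2.16 CPM in control midguts (0.97 and 0.53; SD, n = 4). With library totals the differences were 0.71 in Hnf4i, still called, and 0.23 in control midguts, not called. On the TMM scale all 25 tested members were positive in Hnf4i midguts, 19 of them called, and 24 in control midguts, 4 of them called. The difference between these effects of day was 0.45 for the family sum and was not called (adjusted p 0.109). Copia{}631, in an intron of *Nipped-A*, rose in both genotypes (1.59 and 1.12). The LTR family blood was at 1.80 ± 0.35 CPM on day 4 in Hnf4i midguts, against 0.610 ± 0.04 on day 3, and at 1.40 ± 0.16 against 0.269 ± 0.05 CPM in control midguts (1.57 and 2.38, or 1.31 and 2.09 with library totals).

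The steepest changes with day were in families of few counts. TART-A, a telomeric element, had 32, 10, 29 and 21 counts in Hnf4i midguts on day 4, against 3, 0, 2 and 1 on day 3, and 7, 8, 30 and 22 in control midguts on day 4, against 2, 2, 2 and 2 (4.03 and 3.17, or 3.79 and 2.89 with library totals). Of its 173 counts, 93.1% fell on TART-A{}4601, a piece of 309 bp 429 bp from *Cadps*. No day 3 library of TART-A reached the filter's limit of 0.179 CPM, so the filter itself favored a rise. The non-LTR element G3 rose by 2.73 and 1.86, or 2.47 and 1.58 with library totals. Its leading member, G3{}1, reached the limit in day 4 libraries alone. The changes of TART-A and G3 are therefore a description. The DNA transposon transib1, led by transib1{}1717 on 2R, rose by 1.50 and 2.67, or by 1.24 (not called) and 2.38 with library totals. HeT-A, although telomeric like TART-A, differed between days by 0.37 in Hnf4i and -0.09 in control midguts and was not called as a family. On the TMM scale all 8 tested HeT-A members were positive in Hnf4i midguts, 4 of them called higher. In control midguts 2 were positive and 6 negative, 1 of them called lower. Tirant rose with day in Hnf4i midguts (1.17, SE 0.08, or 0.91 with library totals), and its 0.43 in control midguts was below the fold asked of a call.

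Genes that silence transposons were read from 4 lists. Of 11 tested genes of the germline piRNA pathway none differed on day 3 and 1 was lower on day 4 in Hnf4i midguts, the helicase gene *spn-E* (-2.36). Of 13 tested general piRNA factors 1 was lower on both days, *mino* (-0.65 and -2.34), whose protein belongs to the glycerol-3-phosphate acyltransferases and also acts in the piRNA pathway. None of 4 siRNA genes and none of 10 heterochromatin genes was called between genotypes. Over all rows, 1.61% were higher and 2.52% lower on day 3, and 5.55% and 6.65% on day 4. The siRNA genes *Dcr-2* (1.20 and 1.04 in Hnf4i and control midguts) and *AGO2* (1.09 and 0.84) were higher on day 4. Of the heterochromatin genes 3 were lower in Hnf4i and 2 in control midguts, among them the histone methyltransferase gene *Su(var)3-9* (-1.26 and -1.32). General piRNA factors went both ways, 2 higher and 2 lower in Hnf4i and 3 and 2 in control midguts. Germline piRNA genes had 2 lower in each. Over all rows, 18.5% were higher and 23.6% lower in Hnf4i, and 16.6% and 22.1% in control midguts.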

How the data were processed

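RNA of 16 midgut libraries was sequenced with a stranded, paired-end poly(A) protocol. Per the submitters' notes and methods, the authors used FastQC 0.11.7, MultiQC 1.12, Trimmomatic 0.39, STAR 2.7.10b on BDGP6, R 4.5.1 and DESeq2 1.49.3. The deposited unit used is raw counts per gene or insertion; for the counter, its strand setting and reads with several matches, settings were not given in the sources used here. Of single counts from 1 to 20, 66.1% were even for genes and 54.6% for the members, a difference whose cause was not tested. Counting intervals treat counts as independent and cover counting error only. Whether counts were independent was not tested. The authors' CPM and comparison tables (fold changes and p-values) were not used.

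Counts were fitted in R 4.3.3 with edgeR 4.0.16 (TMM scaling, filterByExpr with a minimum count of 10 and a minimum total of 15, quasi-likelihood test, 1 mean per group over all 16 libraries), once with insertions as rows and once with all insertions of a family summed. Set across the 16 libraries, 0.179 CPM was the filter's limit. Calls needed an adjusted p under 0.05 (Benjamini-Hochberg over all rows) and a log2 fold change of at least 0.5. The fits were tested on simulated data. DESeq2 1.42.0 was an alternative. Replicates are separate pools of midguts; where nothing says that pools came from separate cultures, p-values measure the spread between these samples.

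Members, lists, classes and the naming rule were chosen with earlier results of these data known. The rule named the 10 families with most counts, up to 8 called families and members each way between genotypes (4 between days), the leading member of each named family, members without overlap between genotypes, and those around the limit of 30 counts. Other named insertions (such as Tirant{}147, Tirant{}328, Tirant{}5840, Tirant{}1432, flea{}810, HeT-A{}6270, copia{}67, copia{}631, copia{}988, Cr1a{}1992 and Tc1{}1531) were chosen after their values were seen. Positions and contexts come from the Ensembl BDGP6.54 annotation, matched by insertion ID. Alternatives were DESeq2, its size factors, no filter, members alone in the sums, the compared groups alone, no leading insertion, a replicate block and each library left out. Same-numbered libraries did not deviate together. One host gene and the insertion in it are not reported here.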

Additional observations from a re-analysis of the deposited data

Results flagged for a closer look

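In the following groups of 4 libraries 1 library lay far from the others, which chance gives in about 1 in 20 groups. The naming rule gave 31 families and 53 insertions, each with 4 groups, so a list of this kind can arise by chance. For family sums, in CPM, the library apart was Hnf4i replicate 4 on day 3 for HeT-A (20.9, others 29.5 to 30.4), Hnf4i replicate 2 on day 3 for Idefix (0.915, others 0.352 to 0.429), control replicate 3 on day 3 for 3S18 (0.321, others 0.584 to 0.599), Hnf4i replicate 1 on day 4 for roo (7.51, others 9.33 to 9.62), Hnf4i replicate 4 on day 4 for Bari1 (0.493, others 1.10 to 1.22), and control replicate 2 on day 4 for HB (9.20, others 6.83 to 6.95) and Tom1 (0.289, others 0.124 to 0.133).

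For single insertions the same held for HeT-A{}6262 in Hnf4i replicate 4 on day 3 (10.3 CPM, others 15.5 to 16.1), Tom1{}5196 in control replicate 2 on day 4 (0.289, others 0.124 to 0.133), pogo{}4759 in control replicate 3 on day 4 (0.637, others 0.853 to 0.888) and 3S18{}853 in control replicate 3 on day 3 (0.101, others 0.217 to 0.235). At 1 or 2 counts, a lone library held reads of Burdock{}313 (Hnf4i replicate 4 on day 3, 0.0186 CPM), pogo{}916 (control replicate 1 on day 3, 0.0167 CPM) and Tirant{}24 (control replicate 3 on day 3, 0.0338 CPM, and control replicate 3 on day 4, 0.0177 CPM). Control replicate 2 on day 3 alone had none (0.0 CPM) of blood{}375 (others 0.0158 to 0.0169) and TART-A{}4601 (others 0.0316 to 0.0338).

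By the interaction of genotype and day, the effect of Hnf4i over control was larger on day 4 than on day 3 for the family Tirant (0.744, adjusted p 0.000646), below 0 on day 3 and above 0 on day 4 for the insertions Quasimodo{}3602 (-0.79 and 4.60, interaction 5.39, adjusted p 0.00302) and Tc1{}1531 (-1.04 and 1.34, interaction 2.38, adjusted p 0.0392), and more negative on day 4 for the family H (-0.737, adjusted p 0.0296), each by edgeR's quasi-likelihood test.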

How the results depend on the processing

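With DESeq2, all 144 single family and insertion results that it could be compared on kept direction and call, and with library totals 128 kept both and 21 lost the call. Families called numbered 5 on day 3 and 8 on day 4 between genotypes, 13 between days in control and 0 in the interaction with insertions outside genes alone; without the leading insertion they numbered 8 on day 4, 5 between days in Hnf4i, 11 in control and 1 in the interaction. Without the 4 libraries rich in fat body RNA, 6 families on day 4 and 10 between days in Hnf4i, 38 insertions between days in Hnf4i and 4 in the interaction were called, and the family interaction of H was -0.72 (adjusted p 0.145). Insertions between days in control numbered 65 with library totals. The interaction gave 4 families with DESeq2, and 1 insertion with DESeq2 or no filter. These 3 settings (genes left out, fat body libraries left out, library totals) were chosen after seeing the data.

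Directions turned for H between days in control (-1.21 outside genes, -0.73 without its leading insertion) and in the interaction (0.42 and 0.39), for Max on day 4 outside genes (-0.000146), Quasimodo on day 4 (-0.017) and R1A1 between days in Hnf4i (-0.14) without their leading insertions, for the Tirant interaction outside genes (-1.49) and for 1360{}4814 between days in Hnf4i without the fat body libraries (-0.23). The cause was not tested beyond what each setting removes.

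Leaving out each library in turn gave 7 to 11 families on day 3, 9 to 14 on day 4, 14 to 18 between days in Hnf4i, 18 to 24 in control and 1 to 3 in the interaction, and 27 to 35, 37 to 47, 75 to 100, 89 to 112 and 1 to 3 insertions. The interaction gave 1 family without Hnf4i day 3 replicate 1 or 2 or control day 4 replicate 3, and 1 insertion without Hnf4i day 3 replicate 2, Hnf4i day 4 replicate 1 or 3, control day 3 replicate 1, 2 or 3, or control day 4 replicate 4.

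Same-numbered libraries correlated at -0.158 to 0.084 and were not paired. A replicate block gave 8, 13, 17, 21 and 3 families and 30, 42, 87, 101 and 2 insertions in the same order. A limit of 10 counts gave 1381 members and a limit of 100 gave 379. At 3 counts, a library reached 0.0413 to 0.0666 CPM, and differences between insertions at 0 in both genotypes were not detectable at this depth.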
